A study of Homo sapiens with 3 samples.

Results

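The colony-stimulating factors and interleukins of 5637 cells were examined as 10 genes, *CSF1*, *CSF2*, *CSF3*, *IL6*, *IL11*, *LIF*, *IL1A*, *IL1B*, *IL1RN* and *IL18*, chosen by symbol as cytokines that this line is known to secrete. All 10 were found among the 29960 genes of the deposited table. RNA-Seq of poly-A RNA was available for 3 labelled libraries of the human bladder cancer line 5637, which was grown in RPMI medium with serum. One library is of the parental line (5637P, genotype label WT), and the other two are of its gemcitabine-resistant derivative (5637GR, libraries 1 and 2). The labels call every library untreated, so no drug was present at harvest, and the study's methods describe each library as a single-cell clone, so that 1 clone stands for the parental line here. The labels describe the exposure that produced resistance as acute, whereas the study's methods describe continuous exposure to rising gemcitabine doses. The table also holds the mean of normalized counts for each group, with no error, and these means include clones whose single values were not used here.

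5637 is a basal-type bladder carcinoma line whose conditioned medium has long been used to feed cytokine-dependent leukemia cells. Colony-stimulating factors drive the growth and maturation of granulocytes and macrophages. Cytokines of the IL6 family signal through the shared receptor chain gp130 to STAT3, and the IL1 family signals through MYD88 to NF-κB, which in turn drives transcription of many of the same cytokines. Their mRNAs are typically short-lived, because AU-rich elements in the 3′ untranslated region recruit decay factors such as ZFP36.

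The regulatory sequences of these genes are shown first as background, and any link between them and the levels was not tested. RefSeq promoters of build GRCh38.p14 were matched for 6 of the 10 genes, *CSF2*, *IL6*, *IL11*, *IL1A*, *IL1B* and *IL1RN*, and none was printed for *CSF1*, *CSF3*, *LIF* and *IL18*. The 250 bases before the start were searched on both strands for the AP-1 motif TGANTCA, the C/EBP motif TTGCNNAA, the κB consensus, the CK-1 element (a named motif of the *CSF2* promoter, marked in its sequence) and the TATA box TATAAA, and no matches overlapped. Capitals mark the matches in the sequences of *IL11* (chr19:55370464-55370713, minus strand), *CSF2* (chr5:132073539-132073788, plus strand), *IL1A* (chr2:112784494-112784743, minus strand), *IL1B* (chr2:112836780-112837029, minus strand) and *IL6* (chr7:22726950-22727199, plus strand), each written 5′ to 3′ on the strand of the gene.
IL11: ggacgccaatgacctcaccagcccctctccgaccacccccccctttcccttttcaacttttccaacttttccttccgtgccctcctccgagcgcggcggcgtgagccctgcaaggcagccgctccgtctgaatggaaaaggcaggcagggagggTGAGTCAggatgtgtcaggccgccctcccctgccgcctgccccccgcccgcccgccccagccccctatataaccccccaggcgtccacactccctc
CSF2: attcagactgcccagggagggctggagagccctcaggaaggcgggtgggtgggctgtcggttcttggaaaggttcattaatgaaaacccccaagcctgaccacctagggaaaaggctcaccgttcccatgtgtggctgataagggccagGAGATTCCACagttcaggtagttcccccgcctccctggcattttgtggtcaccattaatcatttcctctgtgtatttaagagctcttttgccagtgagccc
IL1A: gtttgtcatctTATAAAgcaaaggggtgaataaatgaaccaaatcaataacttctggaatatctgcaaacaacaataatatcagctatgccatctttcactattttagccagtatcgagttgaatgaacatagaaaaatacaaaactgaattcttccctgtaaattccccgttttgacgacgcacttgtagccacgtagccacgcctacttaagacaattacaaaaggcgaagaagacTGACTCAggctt
IL1B: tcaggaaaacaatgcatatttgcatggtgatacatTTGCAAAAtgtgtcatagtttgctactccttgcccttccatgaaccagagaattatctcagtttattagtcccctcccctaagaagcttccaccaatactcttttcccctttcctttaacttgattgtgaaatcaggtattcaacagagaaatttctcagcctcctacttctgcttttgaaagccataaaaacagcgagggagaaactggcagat
IL6: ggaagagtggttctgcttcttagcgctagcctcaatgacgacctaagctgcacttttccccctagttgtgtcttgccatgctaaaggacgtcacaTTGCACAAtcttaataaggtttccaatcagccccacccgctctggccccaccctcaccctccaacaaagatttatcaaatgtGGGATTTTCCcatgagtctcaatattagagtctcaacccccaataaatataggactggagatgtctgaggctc

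*IL11* held an AP-1 match whose last base lies at -90 from the start, and *IL1A* held one at -6. *IL1RN* held an AP-1 match as well, in a promoter that is not printed. The TATAAA match of *IL1A* has its last base at -234. *IL1A* had 2 listed starts and *IL1RN* 3, and only the first listed was used, so their matches and positions hold for that start alone. The CK-1 element was searched only as the exact sequence marked in *CSF2*, so its match there was fixed by the choice of motif. No other of the 6 held that sequence, which was found in 0.0399% of all 35116 promoters. Variants of it were not searched, so these results do not show whether the element is specific to *CSF2*. *IL6* held a κB match, and both *IL6* and *IL1B* held a C/EBP match. Over all promoters the AP-1 motif was present in 6.57%, the κB consensus in 9.96%, the C/EBP motif in 9.05% and the TATA box in 10.7%. These matches describe letters in the window and not binding.

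AU-rich elements were counted in the 3′ untranslated region of the longest coding transcript of each gene (GENCODE release 29, transcribed strand). The nonamer TTATTTATT was present in 4 of the 10 genes, with 6 copies in *IL11*, 3 in *CSF2* and 2 each in *LIF* and *IL1B*, against 8.13% of 19146 genes with at least 1 copy. The pentamer ATTTA occurred 25.2 times per kilobase in *CSF2*, 14.0 times in *IL6*, 9.84 times in *IL1B* and 8.20 times in *CSF3*, where the median over all genes was 1.47. *IL1RN* and *IL18* held no pentamer. The longest stretches of overlapping pentamers are shown to compare their lengths in *CSF2*, *IL11* and *IL1B*. These genes have a nonamer and were higher in 5637GR at an unadjusted p under 0.05 (edgeR), so they were picked by outcome. *CSF3* and *IL1A* were also higher at that threshold and held no nonamer. In *CSF3* the longest stretch was a lone pentamer of 5 bases. *LIF* held 2 nonamers and did not pass that threshold. Whether these elements have a part in the levels was not tested.
CSF2: ATTTATTTATTTATTTATTTA
IL11: ATTTATTTATTTA
IL1B: ATTTATTTATTTA

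Total reads on genes were 14475531 in 5637P, and 15836788 and 17461941 in the 5637GR libraries. Levels are given as CPM (counts per 1000000 reads) after TMM scaling, with exact 95% Poisson intervals that cover counting error only. The test was edgeR's quasi-likelihood test on raw counts of the 14846 genes with at least 30 reads over the 3 libraries, with Benjamini-Hochberg adjustment over these genes. With 1 parental library, its spread is assumed to equal that between the 2 resistant libraries, and differences are log2 values of resistant minus parental. Of the 10 cytokines, 9 passed the filter and *IL6* did not. No cytokine passed an adjusted p of 0.05 by edgeR, where 0.525% of all genes did (0.135% higher and 0.391% lower), while 1 (*CSF3*) passed by DESeq2, where 1.67% of all genes did. At an unadjusted p under 0.05, 5 of the 9 were higher in 5637GR and none lower, where 4.84% of all genes were higher and 4.78% lower, or 9.62% together. These 5 were *CSF2*, *CSF3*, *IL11*, *IL1A* and *IL1B*. Both 5637GR libraries lay above 5637P for 7 of the 9, where 35.2% of all genes did, and both were at least 2-fold above it for 2, *CSF2* and *CSF3*, where 4.36% did. The median log2 difference was 1.01 over the 9 cytokines and 0.03 over all genes tested. Both resistant libraries are compared with the same parental library, so their differences are not independent. In bulk RNA, a larger number of producing cells and more RNA per cell cannot be told apart.

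**Figure D1:**
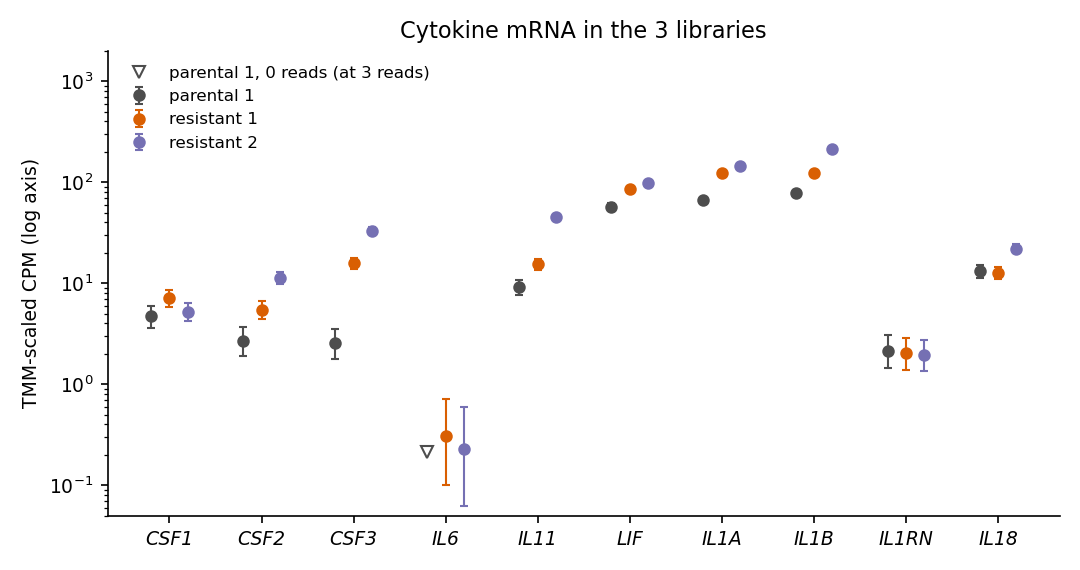
TMM-scaled CPM on a log axis for each of the 10 cytokines in the 5637P library and in 5637GR libraries 1 and 2, where points are libraries and bars are exact 95% Poisson intervals (counting error only). The open triangle marks *IL6* in 5637P, which had 0 reads and is drawn at the level of 3 reads. *CSF3* is at 2.56 CPM in 5637P and at 15.8 and 33.1 CPM in 5637GR, while *IL1RN* lies near 2 CPM in all 3 libraries.

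*CSF3*, which encodes G-CSF, the factor for neutrophil production (ENSG00000108342, hg19 chromosome 17, 38171614 to 38174066), had the largest difference. It was read 36 times in 5637P, and 258 and 574 times in the 5637GR libraries. These counts correspond to 2.56 CPM (1.79 to 3.54), 15.8 CPM (13.9 to 17.9) and 33.1 CPM (30.4 to 35.9). Both 5637GR libraries were above the parental library by more than the counting error, and they differed from each other 2.09-fold (interval 1.80 to 2.43). The log2 difference was 3.25 ± 0.61 (SE), a fold of 9.54 with a 95% interval of 3.63 to 25.1, and the adjusted p was 0.0681 (edgeR). It was under 0.05 in each of 4 alternative fits, DESeq2 and edgeR with RLE scaling, without the filter or with a stricter filter, from 1.03e-06 to 0.0354. The deposited group means were 80.9 normalized counts in the parental group and 241.3 in the resistant group, a ratio of 2.98, and the 5637P library itself was at 0.453 of its group mean.

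*CSF2*, which encodes GM-CSF, a growth factor for granulocytes and macrophages (ENSG00000164400, chromosome 5, 131409483 to 131411859), was read 38 times in 5637P and 89 and 195 times in 5637GR. Its level was 2.70 CPM (1.91 to 3.70) in 5637P, and 5.46 CPM (4.38 to 6.71) and 11.2 CPM (9.72 to 12.9) in 5637GR libraries 1 and 2. The groups did not overlap, and library 2 was 2.06-fold above library 1. The log2 difference was 1.63 ± 0.62 (SE), with an adjusted p of 0.448 (edgeR). The group means had the same direction, at 46.8 and 86.7 normalized counts, a ratio of 1.85. Its CK-1 element and its dense pentamers are printed above.

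*CSF1*, the macrophage growth factor M-CSF (ENSG00000184371, chromosome 1, 110452864 to 110473614), was at 4.69 CPM in 5637P and 7.11 and 5.25 CPM in 5637GR. Library 1 was 1.52-fold above 5637P (counting interval of the ratio 1.11 to 2.085). The counting intervals of 5637P (3.62 to 5.96) and of 5637GR library 2 (4.22 to 6.44) overlapped. Its log2 difference was 0.40 ± 0.52 (SE), with an adjusted p of 0.912 (edgeR). The group means ran the other way, at 116.1 normalized counts in the parental and 70.7 in the resistant group.

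Of the IL6 family, *IL11*, a gp130 cytokine that acts on megakaryocytes and stroma (ENSG00000095752, chromosome 19, 55875757 to 55881831), had the largest difference. It was read 129 times in 5637P and 253 and 791 times in 5637GR. The levels were 9.16 CPM (7.65 to 10.9), 15.5 CPM (13.7 to 17.5) and 45.6 CPM (42.5 to 48.9). The parental library was the lowest, and the gap between the 5637GR libraries, 2.94-fold (interval 2.55 to 3.40), was wider than that between 5637P and library 1, 1.69-fold. The log2 difference was 1.74 ± 0.64 (SE), with an adjusted p of 0.426 (edgeR), which was 0.0148 to 0.350 in the alternative fits. The group means were 156.9 and 451.2 normalized counts, a ratio of 2.88, beside a fitted fold of 3.34 from the libraries.

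*LIF*, a gp130 cytokine known for keeping mouse embryonic stem cells undifferentiated (ENSG00000128342, chromosome 22, 30636436 to 30642840), was at 57.4 CPM in 5637P and 86.4 and 97.8 CPM in 5637GR. Both resistant libraries were above the parental one, and they lay close together. The log2 difference was 0.68 ± 0.35 (SE), with an adjusted p of 0.602 (edgeR). By the group means the ratio was 1.10. *LIF* overlaps MGC20647 and an antisense transcript on the other strand, which had 30 to 50 and 0 to 3 reads, and whether the libraries kept strand information is not given in the sources used here.

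*IL6*, the founding cytokine of the family (ENSG00000136244, chromosome 7, 22765503 to 22771621), was barely detected. It had 0 reads in 5637P, for which the exact interval reaches 0.262 CPM (0.213 CPM is the level of 3 reads), and 5 and 4 reads in 5637GR, or 0.307 and 0.231 CPM. No difference was detectable at this depth. The group means were also low, at 2.65 and 2.99 normalized counts.

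In the IL1 family, the level of both agonists was higher in each 5637GR library than in 5637P, without passing the adjusted threshold, while the antagonist was level. *IL1A*, which encodes the cell-associated alarmin IL-1α (ENSG00000115008, chromosome 2, 113531492 to 113542167), was at 66.0 CPM (61.8 to 70.3) in 5637P. It was at 122.3 CPM (117.0 to 127.8) in 5637GR library 1 and 144.0 CPM (138.4 to 149.7) in library 2. The resistant libraries lay together above the parental library. Its log2 difference was 1.01 ± 0.36 (SE), with an adjusted p of 0.408 (edgeR). The group means did not show it, with 1796 normalized counts in the parental and 1601 in the resistant group, a ratio of 0.892.

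*IL1B*, which encodes the secreted agonist IL-1β (ENSG00000125538, chromosome 2, 113587328 to 113594480), was at 79.0 CPM (74.5 to 83.8) in 5637P. The levels were 122.4 CPM (117.0 to 127.8) and 210.8 CPM (204.0 to 217.7) in 5637GR libraries 1 and 2, which were further apart than for *IL1A*. The log2 difference was 1.08 ± 0.43 (SE), with an adjusted p of 0.470 (edgeR). The group means were 1637 and 1868 normalized counts, a ratio of 1.14.

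*IL1RN*, the antagonist that blocks the IL1 receptor (ENSG00000136689, chromosome 2, 113864791 to 113891593), was read 30, 33 and 34 times, or 2.13, 2.02 and 1.96 CPM. The 3 values overlapped within counting error, and the log2 difference was -0.10 ± 0.61 (SE), with an adjusted p of 0.990 (edgeR) and a fold interval of 0.354 to 2.47. *IL18*, a cytokine that is cut to its active form by caspase-1 (ENSG00000150782, chromosome 11, 112013974 to 112034840), was at 13.1 CPM in 5637P and 12.7 and 22.0 CPM in 5637GR. The groups overlapped, since library 1 was below and library 2 above the parental library. Its log2 difference was 0.40 ± 0.46 (SE), with an adjusted p of 0.896 (edgeR), and the group means had the opposite direction, 260.3 and 194.6 normalized counts.

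The tested genes within 5 Mb of each cytokine had median log2 differences of 0.18 around *CSF1*, 0.13 around *CSF3* and 0.24 around *IL18*, of the same sign as those of the cytokines, and of -0.27 around *IL1RN*, also of the same sign. The medians were -0.42 around *CSF2*, -0.01 around *IL11*, -0.34 around *LIF*, -0.27 around *IL1A* and -0.30 around *IL1B*, of the opposite sign. These medians come from 40 to 200 genes each. The windows of *IL1A*, *IL1B* and *IL1RN* on chromosome 2 overlap almost fully, so their medians are not independent.

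**Figure D2:**
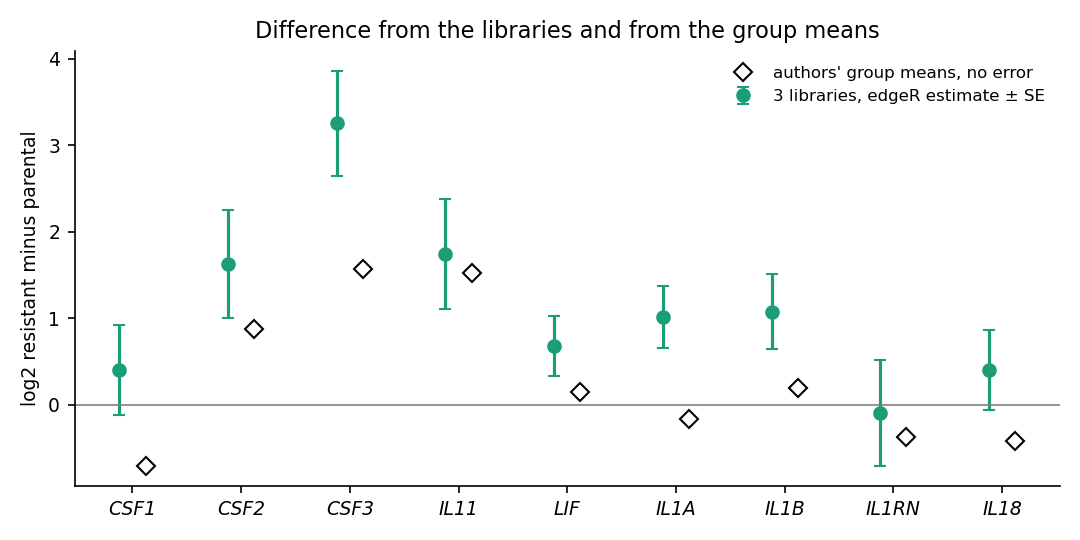
Log2 difference of resistant minus parental for the 9 cytokines tested, as the edgeR estimate from the 3 libraries with its SE (filled) and as the log2 ratio of the deposited group means after a pseudocount of 1, with no error (open). The group mean value lies below the library estimate for each gene, and it has the opposite sign for *CSF1*, *IL1A* and *IL18*.

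The difference between libraries and group means was examined with each library set against the mean of its own group, both as CPM on the genes tested and without TMM scaling. The parental library was below its group mean for 8 of the 9 cytokines, where 54.0% of all genes were, and at least 1.5-fold below it for 3 (*CSF1*, *CSF3* and *IL1A*), where 3.95% of all genes were. For *IL1A* it was at 64.3 CPM against a parental mean of 122.1, a ratio of 0.526. For *IL1B* it was at 77.0 against 111.3, a ratio of 0.692. *IL1RN* was the exception, with 2.08 against 1.82 CPM. The resistant libraries stood differently: library 2 was above the resistant mean for all 9 cytokines tested, where 48.7% of all genes were, and library 1 for 4 of the 9, where 56.7% were. These means contain the libraries themselves. Only for *CSF2*, *CSF3*, *IL11*, *LIF* and *IL1B* was the resistant group mean above the parental one, where 52.3% of all genes were, and it was at least 2-fold above it for *CSF3* and *IL11*, where 3.75% of all genes were. The median log2 ratio of the group means was 0.14 over the 9 cytokines and 0.02 over all genes tested. The part that the position of this parental clone within its group has in the differences was not tested.

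**Figure D3:**
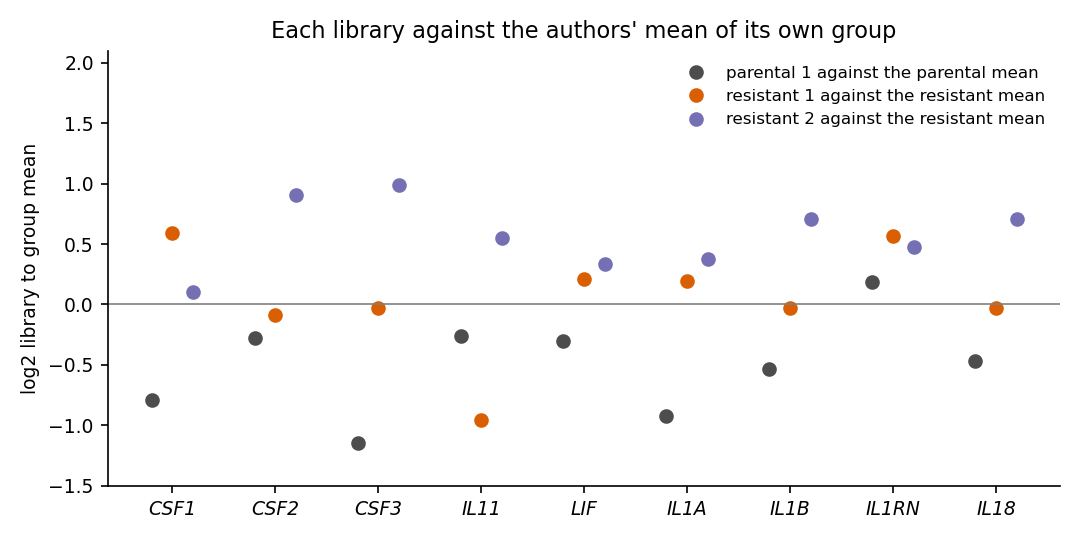
Log2 ratio of each library to the deposited mean of its own group for the 9 cytokines tested, both as CPM without TMM scaling (1 point a library). The 5637P points lie below 0 for every cytokine except *IL1RN*, and the points of 5637GR library 2 lie above 0 for all 9.

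The 2 resistant clones were compared with each other, without a test because each is 1 library. Library 2 was above library 1 for 7 of the 9 cytokines, where 49.4% of all genes were, and at least 1.5-fold above it for 5, where 16.5% were. These 5 were *CSF2*, *CSF3*, *IL11*, *IL1B* and *IL18*, with ratios of 1.72 to 2.94. *CSF1* was lower in library 2, at a ratio of 0.738 (interval 0.555 to 0.979). *LIF* and *IL1A* differed by 1.13- and 1.18-fold.

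To order the cytokines by abundance, levels were divided by the deposited gene length. In 5637P, *IL1B* was at 48.5 CPM per kilobase, *IL1A* at 31.1 and *LIF* at 14.5. *IL18* followed at 7.74, *IL11* at 4.02, *CSF2* at 3.45 and *CSF3* at 1.53, while *CSF1* and *IL1RN* were both at 1.11. Neighbours whose counting intervals overlapped were *IL11* with *CSF2*, and *CSF3*, *CSF1* and *IL1RN* with one another. In 5637GR library 1 the leading genes were the same, at 75.0, 57.6 and 21.8 CPM per kilobase, followed by *CSF3* (9.45), *IL18* (7.48), *CSF2* (6.97) and *IL11* (6.80). Among these followers the intervals of each gene and the next overlapped. In 5637GR library 2 the leading genes kept their places, at 129.2, 67.8 and 24.6 CPM per kilobase. *IL11* (20.0) and *CSF3* (19.8) came next, with overlapping intervals, ahead of *CSF2* (14.4) and *IL18* (13.0), whose intervals also overlapped. Exon union lengths of GENCODE release 29 reversed the order of the first pair in 5637P, at 25.5 CPM per kilobase for *IL1B* and 31.1 for *IL1A*. The pair was also reversed in library 1, at 39.5 and 57.6, while library 2 had 68.1 and 67.8. With these lengths *IL18* in library 1 was at 4.83 CPM per kilobase, below *CSF2* (6.93) and *IL11* (5.81).

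Receptor chains of these cytokine families were examined as a list of 14 genes, of which 10 passed the filter. None passed the adjusted threshold by edgeR, where 0.525% of all genes did. By DESeq2, where 1.67% of all genes did, 1 passed, *IL6R*, the ligand-binding chain for IL-6. It was at 4.54 CPM in 5637P and at 18.1 and 25.0 CPM in 5637GR, a log2 difference of 2.24 ± 0.47 (SE), with an adjusted p of 0.106 by edgeR and 0.00613 by DESeq2. Its group means were 63.5 and 234.4 normalized counts. *IL18R1*, the ligand-binding chain for IL-18, was at 8.02 CPM in 5637P and 13.4 and 33.1 CPM in 5637GR, with an adjusted p of 0.445 (edgeR). Its partner chain *IL18RAP* had 3, 2 and 25 reads. The receptors for colony-stimulating factors, *CSF1R*, *CSF2RA*, *CSF2RB* and *CSF3R*, had at most 4 reads in any library. Over the 10 receptors tested the median log2 difference was 0.58, with 2 higher and 0 lower at an unadjusted p under 0.05, where 4.84% and 4.78% of all genes were.

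Among 18 other ligands and binding proteins, 16 had a row and 6 passed the filter, with a median log2 difference of -0.87. None passed the adjusted threshold by edgeR, where 0.525% of all genes did. By DESeq2, where 1.67% of all genes did, 1 passed as lower, a gene that is not reported here. At an unadjusted p under 0.05 (edgeR), 1 was higher and 3 were lower, where 4.84% and 4.78% of all genes were. *KITLG*, which encodes stem cell factor, was at 62.3 CPM in 5637P and 26.4 and 28.4 CPM in 5637GR. Its log2 difference was -1.19 ± 0.33 (SE), with an adjusted p of 0.252 (edgeR), and its group means had the same direction, 798.2 and 499.9. *IL36G*, an IL1 family agonist of epithelia, had 0 reads in 5637P and 4 and 31 in 5637GR, or 0.245 and 1.79 CPM. It had a 5637GR mean of 4.77 times the level of 3 reads in the parental library, mostly from library 2. Its group means ran the other way, at 19.8 and 10.2 normalized counts.

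The lists for signalling held no call by edgeR or DESeq2, where 0.525% and 1.67% of all genes were called. With 5 to 19 genes tested in each list, an absence of calls says little at these shares. Of 11 genes for IL1 processing and release, 5 passed the filter. *CASP1*, the protease that activates IL-1β and IL-18, had 20 reads in 5637P and 15 and 6 in 5637GR, and group means of 62.3 and 6.90 normalized counts. Both *NLRP3*, an inflammasome sensor, and *PYCARD*, its adaptor, had at most 27 reads in any library. For IL1 receptor signalling and NF-κB, 19 of 20 genes were tested, with a median log2 difference of 0.10. *RELB*, an NF-κB subunit, was at 30.8 CPM in 5637P and 27.5 and 87.5 CPM in 5637GR, and *NFKB2*, its precursor partner, at 65.0 against 85.5 and 154.3 CPM. *TRAF6*, an adaptor downstream of MYD88, was at 14.3 CPM against 7.48 and 7.67 CPM, with an adjusted p of 0.563 (edgeR).

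All 9 genes for NF-κB feedback were tested, with a median of 0.30. *BIRC3*, an NF-κB target that inhibits cell death, was at 21.3 CPM in 5637P and 42.7 and 46.9 CPM in 5637GR, with an adjusted p of 0.375 (edgeR). *NFKBIE* and *NFKBIZ*, which encode IκB proteins, were at 11.4 against 14.1 and 28.0 CPM, and at 68.0 against 104.3 and 101.0 CPM. In gp130 signalling, 13 of 13 genes were tested, with a median of 0.11. *SOCS3*, the feedback inhibitor of gp130 signalling, was at 17.7 CPM in 5637P and 47.7 and 43.6 CPM in 5637GR, a log2 difference of 1.37 ± 0.37 (SE) with an adjusted p of 0.236 (edgeR). Its group means were 285.5 and 572.9 normalized counts. *JAK2*, a kinase of the pathway, was at 18.6 CPM against 9.26 and 9.86 CPM, and *STAT5A* at 14.0 against 17.1 and 24.5 CPM.

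Of 12 AP-1 and C/EBP factors, 11 were tested, with a median log2 difference of 0.14. *CEBPD*, a C/EBP factor induced by cytokines, was at 24.9 CPM in 5637P and 37.2 and 64.9 CPM in 5637GR, with an adjusted p of 0.499 (edgeR). *JUN* was at 89.0 CPM against 112.0 and 201.3 CPM, whereas *JUND* was at 77.0 CPM against 62.5 and 196.1 CPM, on either side of the parental library. The 9 genes for the decay of AU-rich mRNAs had a median of 0.04. Of these, 3 were above and 3 below the parental library in both resistant libraries, near the 35.2% and 34.5% of all genes that were. *ZFP36*, which binds AU-rich elements, was at 15.1 CPM in 5637P and 19.3 and 36.3 CPM in 5637GR. *ZC3H12A*, a nuclease that cuts cytokine mRNAs, was at 84.7 CPM against 124.3 and 135.3 CPM, and *ZFP36L2* at 78.0 CPM against 69.3 and 163.9 CPM.

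**Figure D4:**
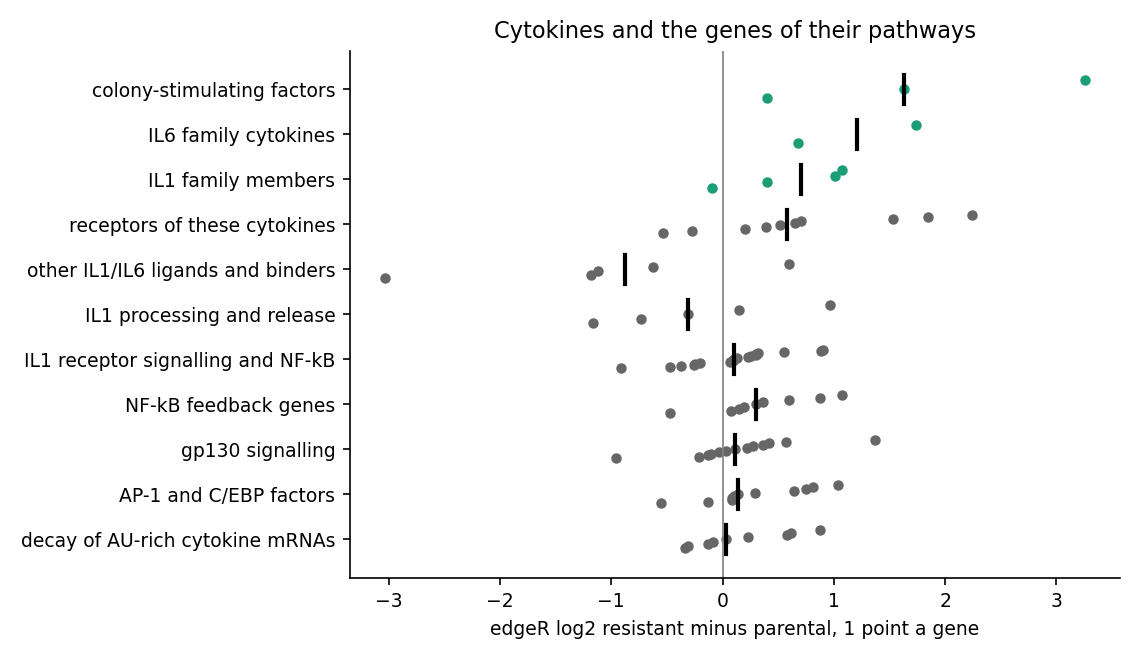
edgeR log2 difference of resistant minus parental for the cytokines (green) and for the genes of 8 pathway lists (grey), 1 point a gene that passed the filter, with black bars at the list medians. *IL36G*, with 0 reads in 5637P, is left out as a point and kept in its list's median. The medians of the cytokine groups lie at 1.63, 1.21 and 0.71, and those of the signalling lists lie between -0.31 and 0.58 apart from the other ligands at -0.87.

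Markers were read to check the label and the purity of the cultures. All 11 urothelial carcinoma markers passed the filter. *KRT5*, a basal keratin, was at 271.9 CPM in 5637P and 9.81 and 13.8 CPM in 5637GR, with an adjusted p of 0.00222 (edgeR). Its group means had the same direction, at 11544 normalized counts in the parental and 2047 in the resistant group. That resistant mean lay well above the 160 and 240 reads of the 5637GR libraries, and it includes values not used here, so the low level cannot be extended to every resistant clone. *KRT17*, another basal keratin, was at 195.9 CPM against 17.2 and 53.4 CPM, and *KRT7* and *KRT8*, keratins of simple epithelia, had log2 differences of -1.05 and -0.76. *EPCAM*, *CDH1* and *KRT19*, which mark epithelial cells and were chosen after their values were seen, had log2 differences of 0.14, 0.08 and -0.04. Over the 11 markers the median was -0.57, with 8 below and 1 above the parental library in both resistant libraries, where 34.5% and 35.2% of all genes were. Of 8 leukocyte markers, 6 had a row, and they summed to 0.781 CPM in 5637P and 1.90 and 1.27 CPM in 5637GR. *CD14*, the one that passed the filter, had 3, 12 and 18 reads. Of the fibroblast and endothelial markers, *COL1A1* and *COL1A2* were expressed, at 113.0 and 59.3 CPM in 5637P and at 97.1 and 61.3, and 58.0 and 84.1 CPM, in 5637GR, while the other 5 with a row were below 1 CPM in every library. The part of these keratins in the cytokine differences was not tested.

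*CSF3* had the largest difference among the cytokines, and the genes with the nearest pattern over the 3 libraries were *RNASE7*, *FAM43A* and *CYGB*. Likeness was the Euclidean distance of centred log2 CPM values (pseudocount 0.5), at 0.0644, 0.0812 and 0.140. With 3 libraries, many genes can lie close together by this measure. *RNASE7*, an antimicrobial ribonuclease of epithelia, was at 1.06 CPM in 5637P and 7.79 and 17.6 CPM in 5637GR, with an adjusted p of 0.0915 (edgeR).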

How the data were processed

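The authors deposited raw read counts per gene for each library, group means of counts divided by size factors (a signal with no error), FPKM values and gene lengths. Per the labels, the build was hg19, with CASAVA 1.8 named. The aligner, counting tool and annotation are not given in the sources used here. The table's fold changes and p-values of the authors' own comparison, and 6 columns of libraries that were not analysed here, were not used. The deposited FPKM values used the deposited gene length and were not analysed further. Symbols were matched as written in the table.

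Counts of 1 parental and 2 resistant libraries were fitted with edgeR 4.0.16 (R 4.3.3; TMM, quasi-likelihood F test, two-sided) after a filter of at least 30 reads over the 3 libraries, leaving 1 residual degree of freedom per gene, moderated over genes. A call was an adjusted p under 0.05. DESeq2 1.42.0, RLE scaling, other filters, a prior count of 2, correction of each cytokine for the median of genes up to 5 Mb to either side, single resistant libraries and, chosen after seeing the data, the group means were alternatives. The fit was also run on simulated counts in which all libraries were given the same spread. That simulation cannot check the spread assumed for the parental library. The p-values rest on the spread between the 2 resistant libraries, moderated over genes. They do not measure any spread among parental clones, for which 1 library stands. The cytokines and the lists were chosen with earlier results of these data known. Listed genes were named if called or if among the 3 largest differences of their list, except 1 gene that is not reported here. The receptors of colony-stimulating factors and the genes overlapping *LIF* were named, and the comparisons between resistant libraries and with group means chosen, after values were seen. Python 3.11.15, pandas 2.3.3 and matplotlib 3.10.9 were used.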

Additional observations from a re-analysis of the deposited data

How the results depend on the processing

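The number of genes called was 78 by edgeR and moved to 248 with DESeq2, 145 with RLE scaling, 534 without the filter and 153 with at least 300 reads. The cause was not tested. No cytokine was called in the first of these fits, against 1 with DESeq2, 1 with RLE scaling, 2 without the filter (*CSF3* and *IL11*) and 1 with at least 300 reads, and 2 were at least 2-fold higher in both resistant libraries. Pathway genes called were 0, against 2, 1, 3 and 1 in the same order, where 0.525% of all genes were called in the first fit and 1.67% with DESeq2. The median log2 difference over the cytokines was 1.01, was 0.63 to 1.13 when 1 resistant library was left out, and was 0.14 with the group means. With the group means, *CSF1* (-0.71), *IL1A* (-0.17) and *IL18* (-0.42) were reversed. *IL18* was also reversed without resistant library 2 (-0.050, against 0.74 without resistant library 1), and *IL1RN* after subtraction of the window median (0.18). No paired analysis was made, because the study describes the clones as independently derived, so a shared replicate number does not define a pair. Leaving out the parental library left no comparison. The depth, 14475531 to 17461941 reads, limits *IL6*, *IL1RN* and the receptors of colony-stimulating factors, and 1 parental clone limits every difference.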
